A study of Mus musculus with 12 samples.

Results

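OPCs exposed to MSC-EVs were compared directly with OPCs exposed to IL4-EVs, a contrast between the 2 types of extracellular vesicles (EVs) that come from pro-regenerative microglia. The members were taken from the sample labels, 3 arrays with MSC-EVs and 3 with IL4-EVs out of the 12 arrays of the study, and they were described across 30077 named genes, all that carried a single gene symbol. All cells were oligodendrocyte precursor cells (OPCs) of C57Bl/6 mice, sorted from the brain at postnatal day 2 with anti-CD140a microbeads, expanded for 48 h with PDGF-AA and bFGF, and then moved to medium with T3 and without these growth factors. The EVs were added shortly after the switch, from 2 donor microglia per OPC, and RNA was collected at 24 h of differentiation. IL4-EVs came from primary mouse microglia stimulated with interleukin 4. MSC-EVs came from microglia kept in coculture with mesenchymal stem cells while pro-inflammatory cytokines were present, so that the groups differ in the stem cells and in the cytokines at once. The other 6 arrays, medium alone (CTRL) and EVs of inflammatory microglia (i-EVs), entered the fit only to estimate the spread and to place the levels. The methods call the 3 replicates of a group independent, without saying whether they were separate sorts or litters, so that p-values measure the spread between these samples.

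OPCs are the cells from which myelin-forming oligodendrocytes arise. They divide in the presence of PDGF-AA, and when the growth factor is withdrawn and thyroid hormone is given they leave the cell cycle, pass through a committed precursor stage marked by Gpr17, Bmp4 and Enpp6, and then begin to make myelin proteins. EVs of microglia carry lipids, proteins and nucleic acids, and IL4-EVs and MSC-EVs were both chosen by the study as vesicles of microglia that favour repair.

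The arrays carried the marks of OPCs. Of 28 OPC genes 25 averaged 6 log2 units or more over the 12 arrays, the brightest being the lineage factor Olig2 at 19.09, and Gpr17 had a mean of 17.97. Mbp, the gene of myelin basic protein, stood at only 5.70 ± 0.045 with IL4-EVs and 5.45 ± 0.38 with MSC-EVs (mean ± SD, n = 3). Of the markers of other cells, 0 of 10 for microglia, 0 of 6 for endothelium, 1 of 9 for fibroblasts or mesenchymal stem cells, 3 of 8 for neurons and 4 of 7 for astrocytes reached 6 log2 units. The summed log2 level of the microglia markers ran from 33.0 to 33.7 in the IL4-EVs arrays and from 32.3 to 33.3 in the MSC-EVs arrays. For the astrocyte markers, whose brightest was S100b, these ranges were 45.5 to 45.7 and 43.5 to 45.7, with MSC-EVs replicate 3 at 43.5. S100b itself read 8.15 in that array and 10.27 to 10.46 in the other IL4-EVs and MSC-EVs arrays. Replicate 3 was the lowest of the 12 arrays in 4 of the 7 astrocyte markers and the highest in 1, Slc1a2, against 22.9% and 10.5% of all genes. S100b is also among the 8 genes, given below with Enpp6, Bmp4 and Myrf, in which replicate 3 lay furthest below replicates 1 and 2. Whether that array held fewer astrocytes was not tested. Pdgfra shares its cluster with a microRNA name, and it was not analysed here.

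One of the 6 arrays stood apart. The mean Euclidean distance over all transcript clusters, the features that the array sums to a transcript, was 47.0 among the IL4-EVs arrays and 59.4 between MSC-EVs replicates 1 and 2, while MSC-EVs replicate 3 lay 75.3 from replicates 1 and 2 and 81.9 from the IL4-EVs arrays. Replicates 1 and 2 lay 55.2 from the IL4-EVs arrays, nearer than they lay to each other. The upper quartile of the linear values was 37.0, 35.5 and 37.9 in MSC-EVs replicates 1, 2 and 3 and 35.4 to 35.5 in the IL4-EVs arrays. The main results below are therefore given with and without MSC-EVs replicate 3.

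Almost nothing passed the test between both EV types. With a 1.5-fold minimum and adjusted p under 0.05 (limma over all 12 arrays, Benjamini-Hochberg over 65535 clusters) there was 1 differentially expressed gene (DEG), 0.00153% of the clusters tested, and it has no gene name. This dim cluster read 4.74, 4.96 and 4.82 log2 units with IL4-EVs and 5.62, 5.58 and 5.67 with MSC-EVs, a difference of 0.79 (SE 0.082, adjusted p = 0.0481, and 0.133 without MSC-EVs replicate 3). The groups did not overlap in it. Among named genes 0 passed, with a lowest adjusted p of 0.201, and the same holds without MSC-EVs replicate 3, where the lowest was 0.0503. Without MSC-EVs replicate 2 there were 186 DEGs, 179 of them higher with MSC-EVs, of which 178 of the 186 carry no gene symbol. Replicate 2 itself deviated from IL4-EVs in the same direction in 154 of them. Over all 186 the median was 0.21 log2 units in replicate 2 against 0.82 in the other MSC-EVs arrays. These clusters were picked with replicates 1 and 3, so that the 0.82 is large by selection. Both values are taken from the same IL4-EVs mean, so that the shared direction is not independent evidence.

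At unadjusted p under 0.05 there were 5838 clusters (8.91%), 3575 higher and 2263 lower with MSC-EVs, and 3940 without MSC-EVs replicate 3. After a second quantile normalization of the arrays the split was 3086 higher and 3105 lower, and after cyclic loess it was 3712 and 2407, so that the excess of higher clusters was kept by one scaling and not by the other. Over named genes 884 were higher (2.94%) and 1250 lower (4.16%), and without MSC-EVs replicate 3 they were 632 (2.1%) and 733 (2.44%). The groups did not overlap in 1783 genes that were higher (5.93%) and 2611 that were lower (8.68%), and without MSC-EVs replicate 3, where only 5 arrays have to be apart, in 3336 and 3796.

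How alike both EV types were can be read from the intervals rather than from the missing calls. For 27697 of the 30077 genes, 92.1%, the 95% interval of the difference lay wholly inside a fold of 1.5 in either direction, and for 28114 it did so without MSC-EVs replicate 3. Most named genes were dim, and among the 9406 with a mean of at least 6 log2 units the share was 82.3%, and 88.5% without that array. Among the 6964 of these that are protein-coding, 91.2% lay inside, and 99.6% without that array. For the genes inside, the fit limits the difference to less than 1.5-fold, and it does not settle smaller ones. The intervals rest on 1 spread per gene shared by all 4 groups. They can be too narrow where the MSC-EVs arrays varied more than the others.

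The named genes that stood apart most, in all 3 MSC-EVs arrays and in replicates 1 and 2 alone, were chosen by a rule (unadjusted p under 0.05 in both fits, same sign, groups that do not overlap). Of 6773 protein-coding genes with a mean of at least 6 log2 units, 121 met it (1.79%), 97 higher and 24 lower with MSC-EVs. None of the 121 passed adjusted p under 0.05. Because they were picked from this contrast, their sizes are larger than those of an average gene.

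Akap9, which encodes a scaffold of the centrosome and Golgi, was among the 10 highest of these and had the smallest p of the 20 genes named here. It read 8.43, 8.61 and 8.62 log2 units with IL4-EVs and 8.92, 8.91 and 9.05 with MSC-EVs, so that all 3 MSC-EVs arrays lay above all 3 IL4-EVs arrays. The difference was 0.41 (SE 0.080, adjusted p = 0.225), and 0.36 without MSC-EVs replicate 3. Against CTRL Akap9 stood 0.72 higher with IL4-EVs (adjusted p = 0.00130) and 1.13 higher with MSC-EVs (adjusted p = 0.000213). Zxdb, a zinc finger gene, read 6.71, 6.87 and 6.88 with IL4-EVs and 7.17, 7.36 and 7.14 with MSC-EVs (difference 0.41, SE 0.12, adjusted p = 0.398, and 0.45 without MSC-EVs replicate 3). In Akap9 and Zxdb the 3 MSC-EVs arrays lay close together.

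In the other 8 of the 10 highest, MSC-EVs replicate 3 lay above replicates 1 and 2, and the difference was smaller without it. Sorcs1, a sorting receptor of the VPS10 family, read 7.92, 8.02 and 8.09 with IL4-EVs and 8.24, 8.19 and 9.55 with MSC-EVs. Its difference of 0.65 (SE 0.27, adjusted p = 0.519) shrank to 0.20 without MSC-EVs replicate 3. Grm5, the glutamate receptor mGluR5, read 7.43, 7.61 and 7.53 with IL4-EVs and 7.71, 7.72 and 8.82 with MSC-EVs, a difference of 0.565 (SE 0.23, adjusted p = 0.513) that was 0.20 without that array. The 6 others were the scaffold gene Akap12, the DNA repair genes Rev3l and Rad50, the deubiquitinase Uchl5, the transcription factor Prrx1 and Cspg4, and their differences lay between 0.42 and 0.53 with the array and between 0.16 and 0.25 without it.

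Cspg4 encodes the proteoglycan NG2 of early OPCs. It read 9.51, 9.70 and 9.49 with IL4-EVs and 9.70, 9.84 and 10.57 with MSC-EVs. MSC-EVs replicate 1 lay level with the highest IL4-EVs array, and the difference of 0.47 (SE 0.17, adjusted p = 0.487) was 0.20 without MSC-EVs replicate 3. The values against CTRL were 0.32 with IL4-EVs (adjusted p = 0.414) and 0.79 with MSC-EVs (adjusted p = 0.0112).

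Among the lower genes Gstp1, a glutathione transferase, read 12.35, 12.13 and 12.19 with IL4-EVs and 11.82, 12.01 and 11.53 with MSC-EVs. The difference was −0.43 (SE 0.14, adjusted p = 0.43), and −0.31 without MSC-EVs replicate 3. Gstp1 lay below CTRL with both EV types, by −0.87 with IL4-EVs (adjusted p = 0.00447) and −1.30 with MSC-EVs (adjusted p = 0.000429). Alg3, a mannosyltransferase of N-glycan assembly, read 12.71, 12.77 and 12.92 with IL4-EVs and 12.45, 12.56 and 11.98 with MSC-EVs (−0.47, SE 0.13, adjusted p = 0.375, and −0.29 without MSC-EVs replicate 3). In both genes the groups did not overlap and replicate 3 was the lowest array.

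Fdft1, the squalene synthase of the cholesterol pathway, read 10.84, 10.80 and 10.84 with IL4-EVs and 10.67, 10.66 and 9.99 with MSC-EVs. Its difference was −0.39 (SE 0.15, adjusted p = 0.487) and −0.16 without MSC-EVs replicate 3. The zinc finger gene Zfp449 had the smallest p of the 10 lowest, with 7.44, 7.50 and 7.49 against 7.10, 7.32 and 7.15 (−0.29, SE 0.067, adjusted p = 0.28), and −0.27 without the array. The other 6, Diras2, Dhrs1, Tmx2, Arrdc4, Mea1 and Rab5if, had differences from −0.41 to −0.27, and from −0.27 to −0.18 without MSC-EVs replicate 3. The cluster named Tmx2 carries the code of chromosome 17 and RefSeq places the gene on chromosome 2, so that it may read a copy. All 20 genes kept their sign under every setting run. Because the rule asks for groups that do not overlap, only the second quantile normalization and cyclic loess could have changed a sign.

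**Figure D1:**
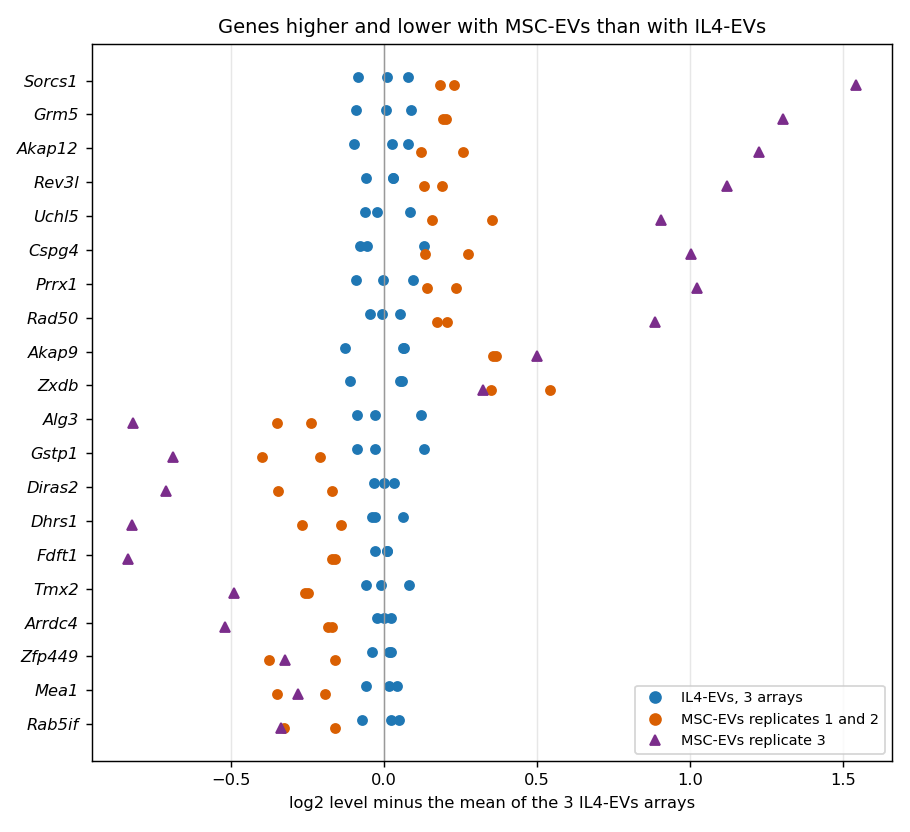
Levels of the 10 highest and 10 lowest genes in the 3 IL4-EVs arrays (blue), MSC-EVs replicates 1 and 2 (orange) and MSC-EVs replicate 3 (purple triangles), as log2 level minus the mean of the IL4-EVs arrays. In Sorcs1, which differed by 0.65, replicate 3 lies far to the right of replicates 1 and 2, whereas in Akap9 and Zxdb the 3 MSC-EVs arrays lie together.

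Some of the other genes that met the rule encode RNA-binding proteins of splicing and were singled out after their values were seen. Rbm39 was 0.30 higher with MSC-EVs (adjusted p = 0.315), and 0.24 without MSC-EVs replicate 3. The differences with and, in brackets, without that array were, for Luc7l3, 0.30 (0.24), for Srsf5 0.27 (0.23), for Tra2a 0.27 (0.20), for Tra2b 0.27 (0.15) and for Prpf39 0.41 (0.29). Akirin2, a nuclear protein that carries proteasomes into the nucleus, was 0.30 higher (adjusted p = 0.225), and 0.28 without the array.

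Genes with very long mRNAs lay higher with MSC-EVs. Of 90 measured, 31 were higher at unadjusted p under 0.05, against 2.94% of all genes, and 0 were lower. The groups did not overlap in 37 that were higher and in 0 that were lower, against 5.93% and 8.68% of all genes. None of the 90 passed adjusted p under 0.05, and the median difference was 0.15 log2 units against −0.02 over all genes. By array the median was 0.11, 0.10 and 0.26 in MSC-EVs replicates 1, 2 and 3. Without MSC-EVs replicate 3 the count was 10 with a median of 0.10, and without IL4-EVs replicate 1, the lowest IL4-EVs array in Lrp1, Nf1, Kmt2d and Dst, it was 8. Against CTRL, with which both comparisons share 3 arrays, 52 of the 90 rose with IL4-EVs (adjusted p under 0.05, 1.89% of all genes) with a list median of 0.39, and 63 rose with MSC-EVs (3.86% of all genes) with a list median of 0.59. The list was drawn up from earlier results of these data, so that its direction is not independent evidence.

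Members of this list have different roles. Lrp1, an endocytic receptor, read 11.43, 11.66 and 11.64 with IL4-EVs and 11.94, 11.84 and 12.11 with MSC-EVs, without overlap (0.38, SE 0.12, adjusted p = 0.42, and 0.31 without replicate 3). Nf1, the brake on Ras, was 0.33 higher (SE 0.11) and 0.26 without replicate 3. Kmt2d, a histone H3 lysine methyltransferase, read 6.73, 6.91 and 6.93 with IL4-EVs and 7.12, 7.08 and 7.28 with MSC-EVs (0.30, SE 0.079, adjusted p = 0.336, and 0.24 without replicate 3). The giant cytolinker gene Dst differed by 0.27, and by 0.29 without replicate 3. Dock9 and Itpr2 had the lowest differences, −0.47 and −0.31 (adjusted p = 0.781 and 0.835), in both through MSC-EVs replicate 3, without which they were 0.21 and 0.23.

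A tilt in the same direction appeared when genes were sorted by their length in the genome (RefSeq, GRCm38.p6) instead of by a list. This length includes introns and is another measure than the length of the mRNA. Kmt2d, a member of the list, spans 42410 bases. Among 6820 protein-coding genes with a mean of at least 6 log2 units, the median difference was −0.03 for 1308 genes shorter than 10 kb, 0.00 for genes of 10 to 30 kb, 0.04 for 30 to 100 kb, 0.06 for 100 to 300 kb and 0.06 for 203 genes over 300 kb. Of the shortest genes 2.75% were higher and 5.5% lower at unadjusted p under 0.05, and of the genes of 100 to 300 kb 10.6% were higher and 0.121% lower. Without MSC-EVs replicate 3 these shares were 1.68% and 1.91%, and 2.67% and 0%. Spearman's rho across the 6820 genes, which share the arrays and are not independent replicates, was 0.21, and 0.31 without MSC-EVs replicate 3. Between the shortest and the longest genes the medians of MSC-EVs replicate 1 ran from −0.04 to 0.07, those of replicate 2 from 0.01 to 0.07 and those of replicate 3 from −0.05 to 0.04. RNA quality values of these samples were not analysed here, and their part in this pattern was not tested.

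**Figure D2:**
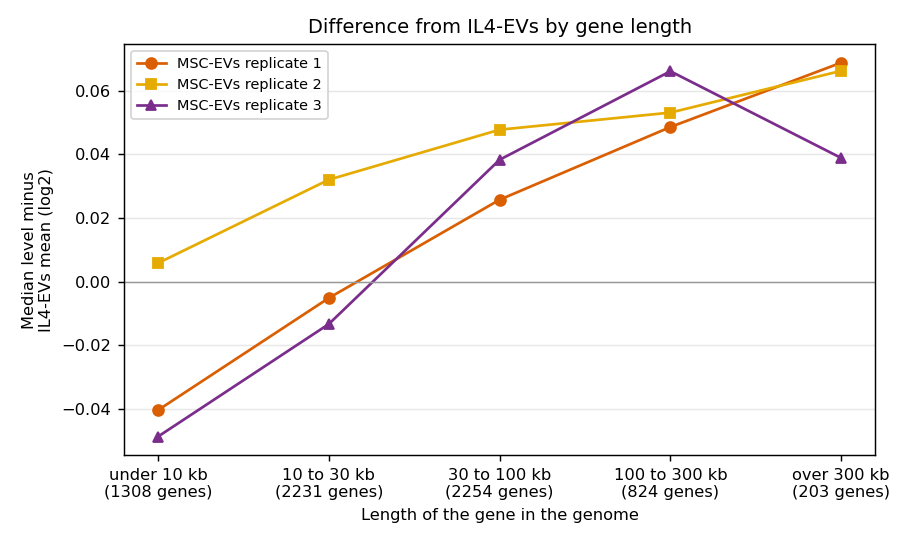
Median log2 level minus the IL4-EVs mean in 5 classes of gene length, for each MSC-EVs array (circles, squares and triangles for replicates 1, 2 and 3), over 6820 protein-coding genes. All 3 lines climb from the class under 10 kb to that of 100 to 300 kb, where the medians are 0.05, 0.05 and 0.07.

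Small nuclear RNAs, named small nucleolar RNAs and 5S ribosomal RNA lay higher with MSC-EVs, and in each of these classes the median was lowest in MSC-EVs replicate 3. Small nuclear RNAs (snRNAs) are the RNA parts of the spliceosome, and small nucleolar RNAs (snoRNAs) guide the modification of ribosomal RNA. These classes of RNA, and the scalings under which they were counted again, were chosen after the data were seen. Of 302 snRNA genes with a mean of at least 6 log2 units, 106 were higher with MSC-EVs and 2 lower at unadjusted p under 0.05, against 5.86% and 6.36% of all genes of that level, with a median of 0.26 (0.31, 0.23 and 0.20 by array). After a second quantile normalization 40 were higher, after cyclic loess 58, and without MSC-EVs replicate 3 42, each with 2 lower and with medians of 0.25, 0.27 and 0.27. Over all 30077 genes both scalings gave 691 and 923 higher and 1861 and 1361 lower. Without MSC-EVs replicate 3, 3.07% of all genes of that level were higher and 3.07% lower. Many of the snRNA genes are near-identical copies, since the 302 held 232 distinct profiles. Rnu2-10, a gene of the U2 snRNA, read 12.23, 12.70 and 12 with IL4-EVs and 13.44, 13.14 and 12.65 with MSC-EVs (0.76, SE 0.21, adjusted p = 0.369). Replicate 3 overlapped with the IL4-EVs arrays, and without it the difference was 0.98.

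Of 59 snoRNA genes with a Snord, Snora or Scarna name 15 were higher and 0 lower, against 2.94% and 4.16% of all genes, with a median of 0.23. Without MSC-EVs replicate 3 the counts were 20 and 0, against 2.1% and 2.44% of all genes. Snord118, the U8 snoRNA, read 4.39, 4.54 and 4.37 with IL4-EVs and 5.18, 5.16 and 4.59 with MSC-EVs. The difference of 0.54 (SE 0.13, adjusted p = 0.298) was 0.74 without replicate 3 (SE 0.071), where its adjusted p of 0.0503 was the lowest of any named gene. A dimmer cluster of Snord118, with a mean of 3.15, differed by 0.63. In that cluster MSC-EVs replicate 2 lay only 0.06 above the IL4-EVs mean, so that replicates 1 and 2 did not agree there. Snord17, a box C/D snoRNA, read 6.63, 7.49 and 6.67 with IL4-EVs and 8.49, 7.72 and 7.93 with MSC-EVs, a difference of 1.11 (SE 0.25, adjusted p = 0.262, and 1.17 without replicate 3). The groups did not overlap in Snord17 and in the brighter cluster of Snord118. Over all 254 snoRNA genes with a mean of at least 6 log2 units 21 were higher and 72 lower, against 5.86% and 6.36% of all genes of that level. The medians were −0.29, 0.11 and −0.49 by array, so that MSC-EVs replicate 2 went against replicates 1 and 3. Without replicate 3 the balance of these 254 turned, to 37 higher and 11 lower, against 3.07% each of all genes of that level, with a median of −0.10. None of the 72 that were lower had a Snord, Snora or Scarna name.

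The 69 genes of 5S ribosomal RNA are near-identical copies with 37 distinct profiles. Their median difference was 0.34, made up of 0.63, 0.35 and 0.03 in MSC-EVs replicates 1, 2 and 3. At unadjusted p under 0.05, 7 genes were higher and 0 lower, against 2.94% and 4.16% of all genes. Without replicate 3 the counts were 37 and 0, against 2.1% and 2.44% of all genes. Many of these genes, such as n-R5s100 and n-R5s103, had the same values in all 12 arrays, so that the same profile was counted many times. After a second quantile normalization 33 were higher (691 of all 30077 genes), and after cyclic loess 36 (923 of all genes). Probes of such copies, and of overlapping host genes, cannot be told apart here.

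Pseudogenes went the other way. Of 4637, 641 were lower with MSC-EVs and 81 higher at unadjusted p under 0.05 (13.8% and 1.75%, against 4.16% and 2.94% of all genes), with a median of −0.09 log2 units and array medians of −0.05, −0.12 and −0.10. Without MSC-EVs replicate 3 there were 401 lower (8.65%) and 73 higher (1.57%), against 2.44% and 2.1% of all genes. After a second quantile normalization 854 were lower (1861 of all 30077 genes), and after cyclic loess 660 (1361 of all genes). Most mouse pseudogenes are copies of mRNAs of housekeeping genes, so that a probe can read the parent mRNA.

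MicroRNA genes were called about as often as other genes of their level. The array reads the total RNA of such a gene, the precursor or its host transcript included, and does not single out the mature form. Of 46 miRNA genes with a mean of at least 6 log2 units, 3 were higher and 3 lower at unadjusted p under 0.05 (6.52% each, against 5.86% and 6.36% of all genes of that level), and 26 of the 46 had a mature entry in RefSeq. The mature sequences of 4 of these 6 genes are shown 5′ to 3′ with the seed, bases 2 to 8, in capitals, to identify them and because no seed is shared among them. They come from the RefSeq table of GRCm38.p6.
let-7d-5p: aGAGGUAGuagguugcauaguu
miR-466k: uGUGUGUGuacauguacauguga
miR-703: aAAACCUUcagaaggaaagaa
miR-3473d: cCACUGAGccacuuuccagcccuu

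Mirlet7d, at chr13:48536024-48536099 on the minus strand from the 3p to the 5p arm, read 7.38, 7.56 and 7.70 with IL4-EVs and 7.87, 7.93 and 7.89 with MSC-EVs, without overlap. The difference was 0.35 (SE 0.14, adjusted p = 0.513), and 0.36 without MSC-EVs replicate 3. Mir466k, whose seed is a run of GU repeats, differed by 0.50 (SE 0.15, adjusted p = 0.414), without overlap. The other higher cluster, named Mir1950, carries the code of chromosome 6 and RefSeq places that gene on chromosome 19, so that its value is not given. Mir703 read 18.85, 18.60 and 18.66 with IL4-EVs and 18.66, 17.95 and 17.86 with MSC-EVs (−0.55, SE 0.17, adjusted p = 0.42), so that MSC-EVs replicate 1 lay within the IL4-EVs range. Mir3473d differed by −0.44 (SE 0.18), with overlap between the groups. The remaining lower gene, Mir684-2, differed by −0.29 (SE 0.13, adjusted p = 0.545), without overlap, and by −0.35 without MSC-EVs replicate 3. These miRNA genes were named after their values were seen.

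**Figure D3:**
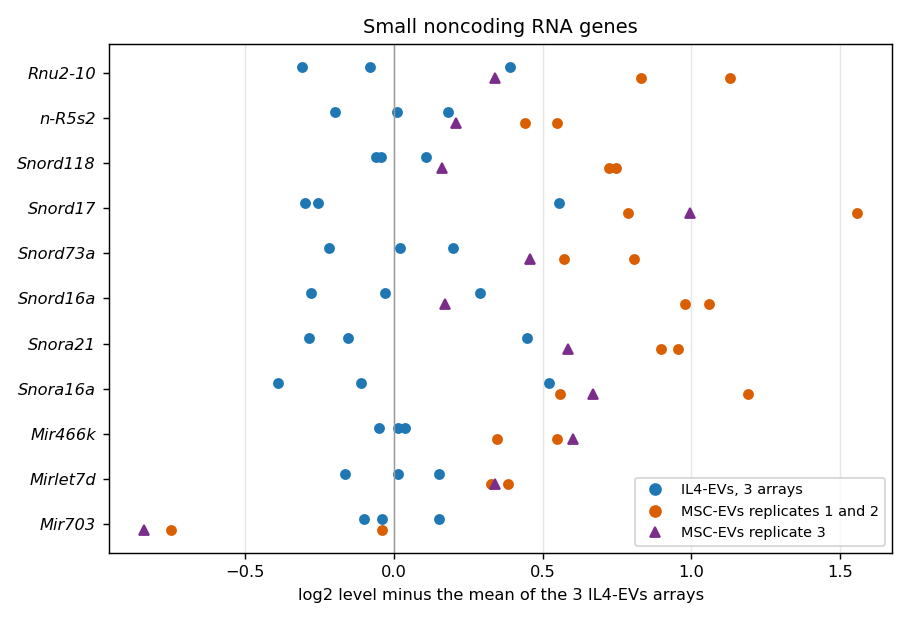
Levels of 11 small noncoding RNA genes in the 6 arrays as log2 level minus the mean of the IL4-EVs arrays (blue, IL4-EVs; orange, MSC-EVs replicates 1 and 2; purple triangles, MSC-EVs replicate 3). In Rnu2-10, n-R5s2, Snord118 and Snord16a replicate 3 lies nearest to IL4-EVs, and in Mirlet7d all 3 MSC-EVs arrays lie together.

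The mitochondrial, proteasome and translation gene groups differed little between both EV types. Nuclear subunits of respiratory complex I had a median difference of −0.04 log2 units (32 genes, 0 higher and 1 lower at unadjusted p under 0.05), those of complexes II to V −0.06 (45 genes, 0 and 3), mitochondrial ribosomal proteins 0.02 (77 genes, 2 and 1) and the citric acid cycle 0.03 (19 genes, 3 and 0). Of all genes 2.94% were higher and 4.16% lower, and of protein-coding genes with a mean of at least 6 log2 units 5.33% and 1.98%. The 3 citric acid cycle genes made up 15.8% of their list. Without MSC-EVs replicate 3 the list counts were 0 and 0, 0 and 2, 1 and 1, and 2 and 0, against 2.1% and 2.44% of all genes. For all 32, 44 of 45, all 77 and all 19 genes of these lists the 95% interval lay inside a fold of 1.5, and without that array for 31, 45, 77 and 19. Cox6a1, a subunit of cytochrome c oxidase, read 16.13, 16.10 and 16.21 with IL4-EVs and 15.94, 16.03 and 15.99 with MSC-EVs, a difference of −0.16 with and without MSC-EVs replicate 3 (SE 0.071, adjusted p = 0.552 with it). Dld, a subunit of pyruvate dehydrogenase and related complexes, was 0.21 higher (SE 0.070, adjusted p = 0.465), and 0.23 without that array, with 12.89, 12.90 and 12.96 against 13.13, 13.15 and 13.08. In both genes the groups did not overlap. Against CTRL, 25 of the 32 complex I genes fell with IL4-EVs (adjusted p under 0.05, 7.47% of all genes) and 26 with MSC-EVs (11.7% of all genes), with list medians of −0.46 and −0.50.

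Proteasome genes had a median of 0.04 (46 genes, 4 higher and 0 lower, all 46 intervals inside a fold of 1.5). The 4 were 8.7% of the list, against 2.94% of all genes and 5.33% of protein-coding genes with a mean of at least 6 log2 units. Without MSC-EVs replicate 3, 1 was higher (2.17%, against 2.1% of all genes and 2.08% of those protein-coding genes). The lid subunit Psmd7 read 13.18, 13.10 and 13.22 with IL4-EVs and 13.34, 13.38 and 13.56 with MSC-EVs (0.26, SE 0.084, adjusted p = 0.428, and 0.20 without replicate 3). Cytosolic ribosomal proteins had a median of −0.07 (38 genes, 0 higher and 2 lower), translation factors −0.01 (58 genes, 0 and 3) and glycolysis −0.06 (19 genes, 0 and 0). Of all genes 2.94% were higher and 4.16% lower. Without MSC-EVs replicate 3 all 3 lists had 0 higher and 0 lower. Rpl7a and Rpl32l, the 2 ribosomal protein genes that were lower, differed by −0.35 and −0.31 and have many near-identical copies. The cluster named Rpl7a carries the code of chromosome 9 and RefSeq places the gene on chromosome 2.

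Genes that respond to interleukin 4 or to inflammatory cytokines were mostly dim in the recipient OPCs, and none was called. Of 21 genes of the IL4 and STAT6 response 0 were higher and 0 lower at unadjusted p under 0.05, and only 2 averaged 6 log2 units or more. The interferon and MHC class I list gave 0 and 0 of 43, 3 of them at this level, and the NF-kappaB targets 0 and 0 of 37, with 6. The groups did not overlap in 5 of the 21, all lower with MSC-EVs (23.8%, against 8.68% of all genes), and in 6 of the 43 that were lower (14.0%) and 2 that were higher. The 95% interval lay inside a fold of 1.5 for all 21, for 42 of 43 and for 36 of 37 of them, which for dim genes says little. Among the 34 cytokine receptors Cntfr, the receptor of ciliary neurotrophic factor, was 0.22 higher (SE 0.081, adjusted p = 0.487) and Igf1r, the receptor of insulin-like growth factor 1, 0.30 higher (SE 0.12), 0.13 and 0.12 without MSC-EVs replicate 3. Of 25 Notch pathway genes 3 were higher and 0 lower at unadjusted p under 0.05, against 2.94% and 4.16% of all genes, and 0 and 0 without MSC-EVs replicate 3. The list median was −0.05, with 9 of the 25 above 0. The ligand-like gene Dner read 11.16, 11.27 and 11.37 with IL4-EVs and 11.42, 11.58 and 11.96 with MSC-EVs (0.39, SE 0.13, adjusted p = 0.457), and Notch1, the receptor, was 0.32 higher (SE 0.12). Without that array the differences were 0.23 and 0.15. Of 33 immediate early genes 5 were higher and 0 lower, against the same 2.94% and 4.16%, and 0 and 0 without MSC-EVs replicate 3. Among them the phosphatase gene Dusp6 differed by 0.45 (adjusted p = 0.519) and Jun by 0.34 (adjusted p = 0.545), and without that array by 0.22 and 0.11.

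The mRNAs of regulators that the study inferred upstream of both EV responses were mostly at like levels. The study inferred these regulators from its lists of DEGs, and the mRNA level of a regulator does not measure its activity. Csnk2a1, the catalytic subunit of casein kinase 2, stood at 13.23 ± 0.036 after IL4-EVs and 13.23 ± 0.15 after MSC-EVs (SD, n = 3), and Mapk14, the p38 kinase, 7.65 ± 0.056 and 7.65 ± 0.046. The transcription factors Yy1 and Taf1 differed by −0.05 (95% interval −0.21 to 0.12) and 0.14 (−0.06 to 0.34). Of the 11 such genes measured 0 were called in either direction at unadjusted p under 0.05, where 2.94% of all genes were higher and 4.16% lower. Among these 11 only in Cdk1, the kinase that drives entry into mitosis, did the interval reach past a fold of 1.5 (0.39, −0.32 to 1.09), and there it was MSC-EVs replicate 3 that read 10.64, against 9.05 to 9.27 in the other 5 arrays.

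**Figure D4:**
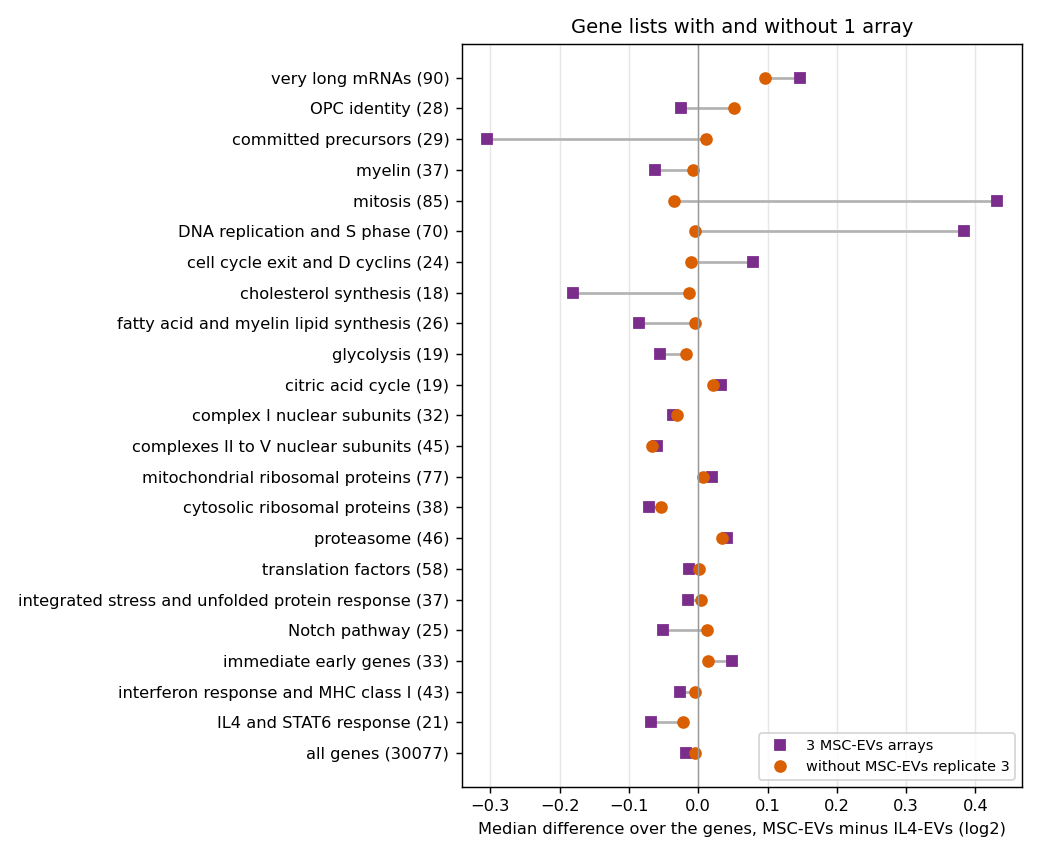
Median log2 difference, MSC-EVs minus IL4-EVs, over the genes of 22 lists and over all genes, with the 3 MSC-EVs arrays (purple squares) and without MSC-EVs replicate 3 (orange circles), the number of genes in brackets. The medians of mitosis and DNA replication fall from 0.43 and 0.38 to near 0 and that of committed precursors goes from −0.30 to 0.01, whereas those of the mitochondrial lists hardly move.

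The medians of the cell cycle and lineage lists rested on MSC-EVs replicate 3. Over 85 mitosis genes the median difference was 0.43 with the array and −0.03 without it (−0.05, −0.01 and 1.42 in replicates 1, 2 and 3), and in 81 of the 85 replicate 3 was the highest of the 12 arrays, against 10.5% of all genes. Of the 85, 1 was higher at unadjusted p under 0.05 and 0 were lower, against 2.94% and 4.16% of all genes. For 70 genes of DNA replication and S phase the medians were 0.38 and near 0, and replicate 3 was highest in 64. Over 29 committed precursor genes they were −0.30 and 0.01, with replicate 3 the lowest of the 12 arrays in 21, against 22.9% of all genes. In RNA from whole cultures, more cells of a stage and more RNA per cell cannot be told apart.

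The genes in which replicate 3 lay furthest from replicates 1 and 2 are given as a description, without a test. Mcm6 and Mcm4, subunits of the replicative helicase, read 11.01 and 11.24 in replicate 3 against 8.91 to 9.09 and 9.09 to 9.35 in the other 5 arrays. Rrm2, a subunit of ribonucleotide reductase, read 12.85 against 10.80 to 10.91. Itga8, an integrin subunit and no cell cycle gene, read 8.24 against 5.98 to 6.22. Mcm5, Ndc80, H1f5 and Pclaf made up the 8. On the other side, Fa2h, the fatty acid hydroxylase of myelin lipids, read 6.94 against 9.49 to 9.63, Myrf, the transcription factor of myelination, 6.08 against 8.21 to 8.27, and S100b 8.15 against 10.27 to 10.46. Enpp6 read 5.13 in replicate 3 and Bmp4 7.19, while the other 5 arrays lay between 9.46 and 9.63 and between 10.89 and 11.07. Slc24a3, Tafa2 and Epb41l2 completed these 8.

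Without replicate 3 most stage genes of both groups were close, the exception being Cspg4 as given above. The difference was −0.03 for Gpr17, −0.05 for Bmp4, 0.05 for Enpp6, −0.03 for Mbp, 0.07 for Mki67 and −0.10 for Top2a, each with unadjusted p over 0.05, and for all 29 committed precursor genes, all 37 myelin genes, all 28 OPC genes and all 85 mitosis genes the 95% interval then lay inside a fold of 1.5. Sox10, the lineage factor, read 14.87, 14.78 and 14.85 with IL4-EVs and 14.61, 14.77 and 13.95 with MSC-EVs (−0.39, SE 0.17, adjusted p = 0.546, and −0.14 without replicate 3). Cholesterol synthesis had a median of −0.18 and −0.01 without the array.

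**Figure D5:**
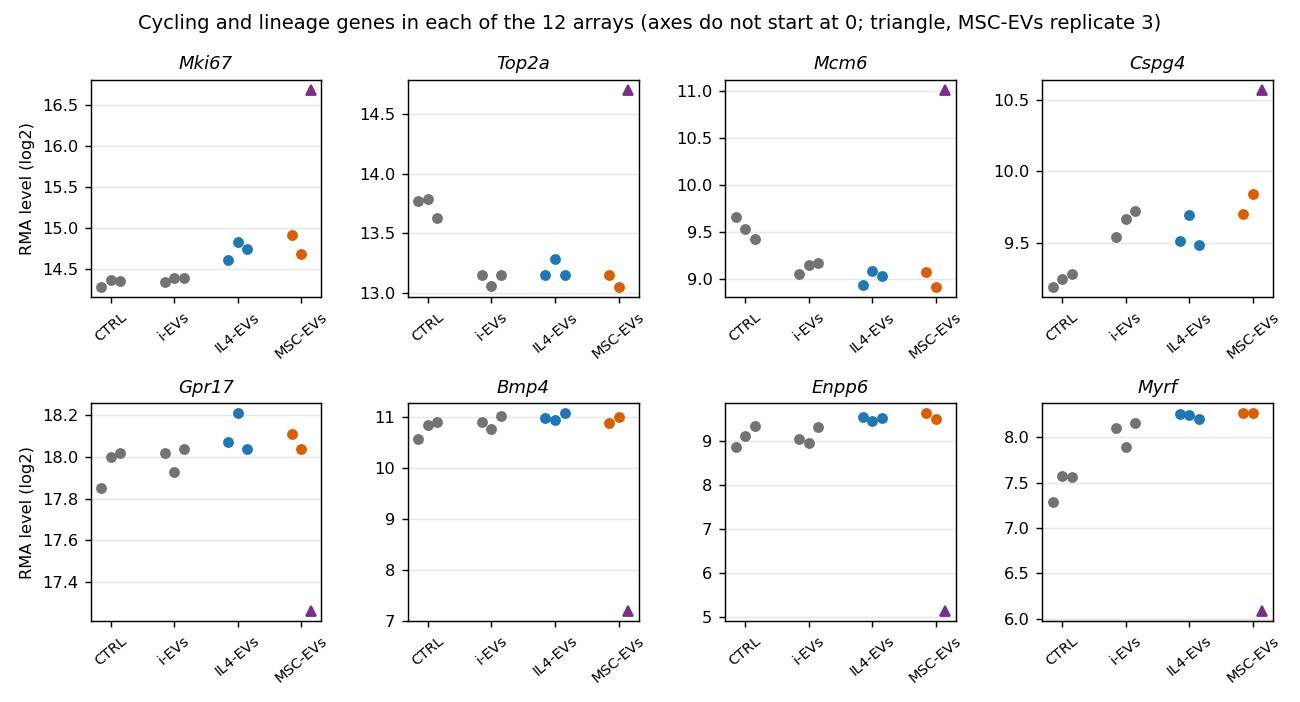
Log2 levels of the cycling genes Mki67, Top2a and Mcm6, the OPC gene Cspg4, the committed precursor genes Gpr17, Bmp4 and Enpp6, and Myrf in each of the 12 arrays (3 per group; grey, CTRL and i-EVs; blue, IL4-EVs; orange, MSC-EVs replicates 1 and 2; purple triangle, MSC-EVs replicate 3). In each panel the triangle lies outside all other arrays, above them in the first 4 genes and below them in the last 4, as with Enpp6 at 5.13.

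The promoters of the mitosis and replication lists were searched for short motifs that are known from cell cycle promoters. The cell cycle genes homology region (CHR, TTTGAA) and the CCAAT box are bound by the MuvB-B-Myb complex and by NF-Y, and GCGGGAA is a form of the E2F site. Within 300 bases, from 250 before to 50 after the start of the gene (RefSeq, GRCm38.p6), TTTGAA occurred on either strand in 47 of 72 mitosis genes with an entry (65.3%), in 11 of 55 replication genes (20%) and in 20.2% of all 27025 genes. CCAAT occurred in 66.7%, 60% and 41.1%, and GCGGGAA in 6.94%, 38.2% and 5.29%. Among 5741 protein-coding genes with a mean of at least 6 log2 units and an entry, TTTGAA occurred in 13.7%, CCAAT in 44.3% and GCGGGAA in 10.2%. Beside these genes GCGGGAA was less frequent in the mitosis list. Of the 8 genes furthest above in replicate 3, 7 had an entry, with TTTGAA in 2, CCAAT in 5 and GCGGGAA in 1, and none of them in Itga8. The windows of Cdk1, a mitosis gene, and of Pclaf, a replication gene among the 8 furthest above, are printed with these motifs in capitals, on either strand, because together they hold all 3.
Cdk1, chr10:69352863-69353162, minus strand: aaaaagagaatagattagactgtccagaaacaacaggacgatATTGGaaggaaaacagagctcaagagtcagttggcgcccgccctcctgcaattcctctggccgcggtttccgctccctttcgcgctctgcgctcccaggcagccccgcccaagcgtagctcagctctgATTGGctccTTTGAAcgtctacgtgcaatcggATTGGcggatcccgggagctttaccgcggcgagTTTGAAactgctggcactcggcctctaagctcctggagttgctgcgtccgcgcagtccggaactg
Pclaf, chr9:65890073-65890372, plus strand: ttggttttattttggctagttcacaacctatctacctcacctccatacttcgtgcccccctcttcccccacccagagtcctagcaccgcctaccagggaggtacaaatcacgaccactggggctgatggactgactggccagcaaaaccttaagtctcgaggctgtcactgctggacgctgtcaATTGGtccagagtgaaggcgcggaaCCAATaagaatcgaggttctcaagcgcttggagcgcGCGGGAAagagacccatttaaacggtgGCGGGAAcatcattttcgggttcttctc
The window of Cdk1 holds TTTGAA 2 times and CCAAT 3 times, and that of Pclaf holds CCAAT 2 times and GCGGGAA 2 times. A match describes the letters and says nothing on whether a factor was bound.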

How the data were processed

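The authors processed 12 Clariom D mouse arrays by RMA (TAC 4.0 per the methods, Affymetrix Expression Console in the submitters' processing notes), with quantile normalization, and deposited the intensity values on a linear scale. A second deposited table held the same values. For the annotation behind the clusters, a genome build was not given in the sources used here. Both tables hold 65535 transcript clusters and end within chromosome 19, so later clusters were not analysed here. Of these, 30404 carried 1 symbol. Values were turned to log2, and 1 cluster per gene, the brightest, was kept (30077 genes). In 62 of 29751 genes the chromosome code of the cluster differed from RefSeq. Differences were fitted with limma 3.58.1 (R 4.3.3, data.table version 1.17.8), 1 mean per group over 12 arrays and 8 residual degrees of freedom, with Benjamini-Hochberg adjustment over all clusters, and again without MSC-EVs replicate 3. Unadjusted p-values are from the same fits. Intervals are 95%. The fit was tested on simulated data. Named genes are the 10 highest and 10 lowest that met the rule given in the text, the 8 in which MSC-EVs replicate 3 lay furthest above and below, up to 3 per list with the smallest p, stage genes and genes of the paper. The members and the 38 lists were chosen with earlier results of these data known. Promoter windows and miRNAs came from RefSeq tables. Plots used Python 3.11.15 and matplotlib 3.10.9. Alternatives are in the closing section.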

Additional observations from a re-analysis of the deposited data

How the results depend on the processing

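The single DEG was absent (0) after a second quantile normalization, with only the 6 arrays of both groups, with array quality weights, with an intensity trend and robust prior, and over clusters with a mean of at least 6 log2 units, and the same cluster was the only one after cyclic loess. In the fit as reported it was also the only one with no fold threshold and at adjusted p under 0.1. The cause was not tested. Leaving out each of the 12 arrays in turn gave 0 to 186 DEGs, 3682 to 8128 clusters at unadjusted p under 0.05 (3682 without IL4-EVs replicate 1) and 8 to 39 very long mRNAs that were higher (8 without IL4-EVs replicate 1, 10 without MSC-EVs replicate 3). Restricted to clusters with a mean of at least 6 log2 units, which tests fewer of them, 1733 had unadjusted p under 0.05. In the other settings the count of clusters lay within 1.5 times of 5838 and that of long mRNAs within 1.5 times of 31.

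The replicate numbers are shared between the groups, and samples of 1 number deviated from their group means with correlations of 0.14, 0.05 and 0.06 between IL4-EVs and MSC-EVs, so that pairing was not established. With a replicate block there were 0 DEGs and 6415 clusters at unadjusted p under 0.05. Of the genes in the plot of the 10 highest and 10 lowest, 20 of 20 kept their sign in all settings. Their selection fixed this in advance, except under the second quantile normalization and cyclic loess. The lowest adjusted p of any of the 20 was 0.0633. Array weights were lowest for MSC-EVs replicate 3 (0.435) and i-EVs replicate 2 (0.442). With 3 arrays per group, and more spread within MSC-EVs than within IL4-EVs, the number of arrays limits the precision.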
